A study of Fragaria x ananassa with 3 samples.

Results

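The new candidate miRNAs of 23 nt were 121 mature small RNAs of strawberry fruit, taken as every name that the authors placed among the sequences matching no known miRNA and that was 23 bases long. They made up 9.88% of the 1225 new candidates and stood among 1310 listed miRNAs. The rule used the length and the class of a name but no read number, and all 121 sequences differed from each other. Small RNA of Fragaria x ananassa cv. Zhangji fruit, picked at commercial maturity, was sequenced at 0 h and after 24 h of storage, with 1 library for each time, at 20 °C and about 85% relative humidity. A degradome library, which records the ends of cut mRNAs, came from a mixture of fruit of both storage times. The comparison of 0 h with 24 h addressed changes during fruit senescence after harvest, and the number of fruits behind a library was not given in the sources used here. With 1 library per storage time no difference was tested across samples, and names of 1 length are not replicates, so that differences between length classes are descriptions without a test. Intervals are exact at the 95% level and cover counting error only.

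In plants, Dicer-like enzymes cut small RNAs from double-stranded RNA. In Arabidopsis, DCL1 releases miRNAs, mostly of 21 nt, from the stem of a hairpin, and Argonaute AGO1 prefers those that begin with uridine. DCL3 in the same species makes 24 nt siRNAs that direct DNA methylation of transposons and repeats, often with a strand of 23 nt opposite the 24 nt one, and AGO4, which binds them, prefers a first adenosine. A length of 23 nt lies between the 2 products, and the 23 nt candidates were therefore compared with the candidates of 21, 22 and 24 nt.

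The 10 most abundant 23 nt candidates are shown first, because they hold 32.7% of the 23 nt reads at 0 h and 30.4% at 24 h. Each is written from 5′ to 3′ with T in place of U, and capitals mark the seed, bases 2 to 8. Of these 10 sequences 7 begin with uridine, 2 with guanosine and 1 with adenosine, and 7 came from the 3′ arm of the predicted hairpin. The first lines below share the seed ACGATCG, the next the seed AACTGAG, and the others have seeds of their own within the 10.
PC-3p-24717_146: gACGATCGgatgactcacggctt
PC-3p-23248_155: gACGATCGgacggttcacggctt
PC-3p-22619_160: aACGATCGgacggctcacggctt
PC-3p-9194_391: tAACTGAGaaaattgacggaata
PC-3p-25891_140: tAACTGAGaaaattgacggaatt
PC-3p-45071_80: tAACTGAGaaaattgacggaatc
PC-3p-90105_39: tGGACGGCggagatgaacgggta
PC-5p-20375_178: tCTGGATAgggactgtatatata
PC-5p-69997_51: tCAATAGActaagaaggtggaca
PC-5p-53269_67: tCTGGGACtatagccgacgacat

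The 23 nt candidates were low in reads in both libraries. Their raw reads summed to 3838 at 0 h and 3916 at 24 h, of 3006293 and 2998588 raw reads of all listed miRNAs. Among the reads of new candidates they held 0.884% (0.857 to 0.913, Clopper-Pearson) at 0 h and 0.693% (0.672 to 0.715) at 24 h. Over both libraries a 23 nt name had 12 to 398 raw reads with a median of 39, against medians of 50 for 21 nt, 75.5 for 22 nt and 48 for 24 nt. The classes of 21 and 22 nt were dominated by a few names, since their 10 most abundant held 96.3% and 92.9% of the reads. In the classes of 23 and 24 nt the same share was 31.5% and 32.5%. The most abundant name reached 569700 reads at 21 nt and 24059 at 24 nt, so that no 23 nt candidate came near the leading candidates of its neighbours. No 23 nt name was at 0 reads in either library.

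Among the 10 most abundant names, PC-3p-24717_146 had 199 raw reads in each library. PC-3p-23248_155 gave 190 raw reads in the 0 h library and 176 in the 24 h library. PC-3p-9194_391 had 159 and 147. On the authors' normalized reads, on which the 24 h library is scaled down more than the 0 h library, the folds of 24 h over 0 h were 0.923 (0.755 to 1.13, conditional binomial), 0.856 (0.693 to 1.06) and 0.849. All 3 were thus close to equal in fruit at harvest and in stored fruit. PC-3p-90105_39 had 124 and 152 raw reads with a fold of 1.14 (0.887 to 1.45). PC-3p-25891_140 had 145 and 110 raw reads with a fold of 0.699 (0.542 to 0.904), and PC-3p-22619_160 had 97 and 65 with a fold of 0.618 (0.445 to 0.856). These last 2 were the 2 of the 10 whose interval left out equal values, and both were lower at 24 h. PC-5p-20375_178 had 100 and 84 raw reads, PC-3p-45071_80 had 83 and 85, PC-5p-69997_51 had 80 and 87, and PC-5p-53269_67 had 78 and 86. Of the 10 names 3 were above equal normalized values at 24 h and 7 below.

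**Figure D1:**
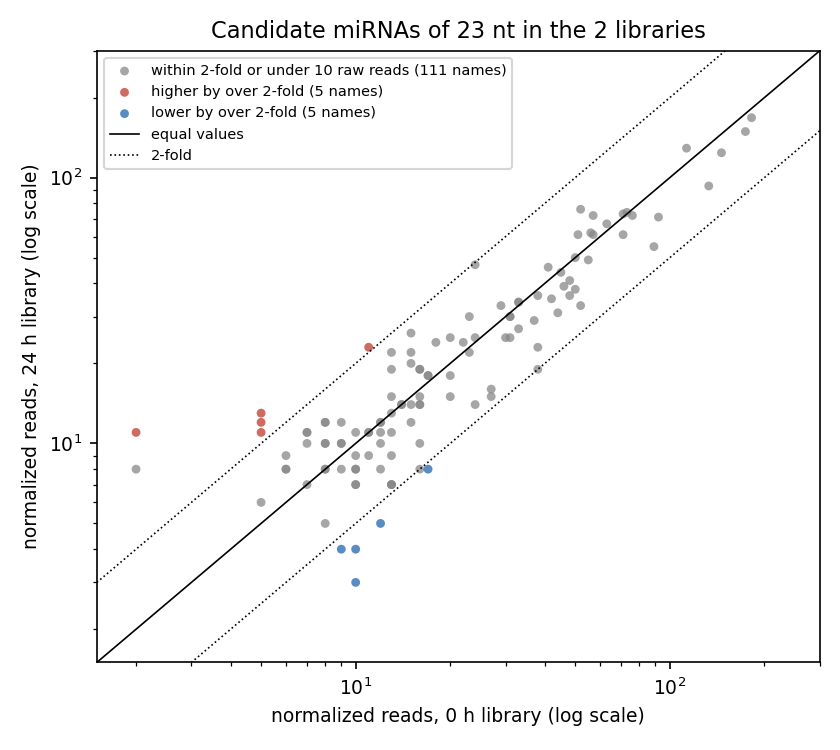
Normalized reads of each of the 121 candidates of 23 nt in the 0 h library (horizontal, log scale) and in the 24 h library (vertical, log scale). The solid line marks equal values and the dotted lines a 2-fold difference. The 5 names that were higher and the 5 that were lower by over 2-fold lie at the low end of the reads, and the names with most reads lie near the line.

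Few 23 nt candidates differed by over 2-fold between the libraries. A name entered this comparison with at least 10 raw reads in 1 library or more, which 115 of the 121 had, and it was called where the log2 fold of normalized reads passed 1 or -1. Of the 115 names 5 were higher (4.35%) and 5 lower (4.35%), against 6.25% higher and 3.69% lower among all 1248 listed miRNAs that entered. At 21 nt 31 of 162 names were higher (19.1%) and 3 lower (1.85%), at 22 nt 7 of 56 were higher (12.5%), and at 24 nt 22 of 816 were higher (2.70%) and 32 lower (3.92%). The share of higher names at 23 nt was thus nearer to that of 24 nt than to that of 21 nt. The median log2 fold was -0.047 at 23 nt, with quartiles of -0.32 and 0.25, and -0.051 at 24 nt, 0.18 at 21 nt and 0.26 at 22 nt, beside a median of 0 over all listed miRNAs. The sign at 23 nt turned with the scaling. Without scaling the median was 0.057 for 23 nt and 0.111 for all listed miRNAs, and when the libraries were set to equal totals of listed miRNAs the 2 values were 0.060 and 0.115. In both cases 23 nt stayed below the median of all listed miRNAs. The summed normalized reads of the 23 nt names gave a fold of 0.945 (0.901 to 0.985), which turned to 1.02 under the same 2 scalings.

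**Figure D2:**
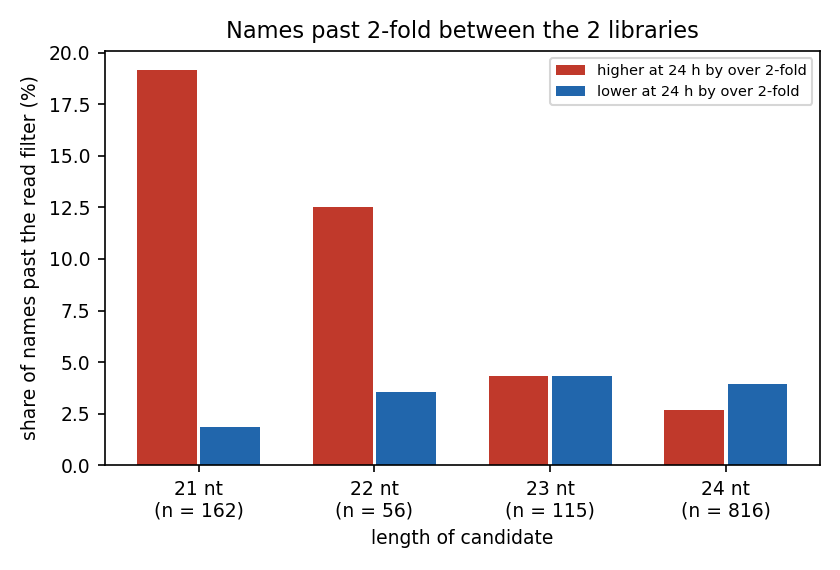
Share of names (vertical, in percent, of names that reached 10 raw reads in either library) that were higher (red) or lower (blue) by over 2-fold at 24 h, by length of the candidate. At 23 nt both bars stand at 4.35%, at 24 nt at 2.70% and 3.92%, and at 21 nt the bar of higher names reaches 19.1%.

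The names past 2-fold all had few reads, at most 27 in a library. The higher names began with PC-5p-205788_18, with 2 raw reads in the 0 h and 13 in the 24 h library (fold 5.50, 1.36 to 54.8). PC-5p-90380_39 had 12 and 27 raw reads (fold 2.09, 1.02 to 4.50). These were the 2 called names whose interval left out equal values. PC-5p-407532_9 had 6 and 15 raw reads, PC-3p-233903_15 had 5 and 14, and PC-3p-505351_8 had 6 and 13, with folds of 2.60, 2.40 and 2.20. Among the lower names, PC-3p-172525_21 had 11 and 4 raw reads (fold 0.300, 0.0780 to 1.13), and PC-5p-441518_9 had 19 and 10 (fold 0.471, 0.202 to 1.10). PC-5p-996680_4 had 11 and 5 raw reads, PC-5p-494551_8 had 13 and 6, and PC-5p-434956_9 had 10 and 5. None of the 10 intervals lay wholly beyond 2-fold, so that at this depth a 2-fold difference of a single 23 nt name could not be told from a smaller one. Among all 115 names the interval left out equal values for 8, of which 4 were higher and 4 lower. Just short of the threshold and therefore not called were PC-3p-98812_36 with 26 and 55 raw reads (fold 1.96, 1.20 to 3.24) and, both with a log2 fold at -1, PC-3p-91575_39 with 41 and 22 (fold interval 0.281 to 0.851) and PC-5p-304079_12 with 17 and 9.

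The first base of the 23 nt candidates was most often uridine. Of the 121 names 54 began with uridine (44.6%), 33 with adenosine (27.3%), 19 with guanosine (15.7%) and 15 with cytidine (12.4%). At 21 nt the shares were 51.8% uridine and 21.4% adenosine, and at 22 nt uridine had 53.4%, while at 24 nt adenosine had 59.9% and uridine 20.4%. By raw reads, names beginning with uridine held 47.6% of the 23 nt reads at 0 h and 48.7% at 24 h, and those beginning with adenosine 20.2% and 19.3%. By names the first base of the 23 nt candidates was therefore nearer to that of the 21 and 22 nt candidates than to that of 24 nt. By reads this held for 22 nt, where uridine had 59.6% and 65.5% in the 2 libraries, but not for 21 nt, where it had 90.6% and 91.6%, against 13.2% and 12.6% at 24 nt. Counting each group of related sequences once left the share of uridine at 43.3%. Groups here need an unbroken shared run of at least 14 bases, so that some near variants were still counted apart. The 2 arms gave like values, with uridine first in 39.7% of the 58 names from the 5′ arm and in 49.2% of the 63 names from the 3′ arm.

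At the other end the 23 nt candidates differed by names from each of the compared lengths. The last base was adenosine in 60 names (49.6%), against 30.4% at 21 nt and 24.1% at 24 nt, where uridine was the most frequent last base with 42.2%. By reads a last adenosine had 46.5% at 23 nt, below the 73.3% at 21 nt and above the 5.37% at 22 nt and 36.3% at 24 nt. The base before the last was uridine in 68 names (56.2%), against 29.2% at 21 nt, 29.3% at 22 nt and 20.9% at 24 nt. Uridine followed by adenosine closed 35 of the 121 names (28.9%), against 11 at 21 nt (6.55%), 4 at 22 nt (6.90%) and 32 at 24 nt (3.71%). This ending was singled out after the sequences had been seen. It held 29.2% of the 23 nt reads, and with each group of related sequences counted once its share was 34.4%. Uridine first together with adenosine last was found in 32 names (26.4%), against 11.9% at 21 nt, 12.1% at 22 nt and 6.26% at 24 nt. The reverse, adenosine first with uridine last, was found in 10 names (8.26%), against 4.17% at 21 nt, 5.17% at 22 nt and 27.7% at 24 nt. Examples of uridine first with adenosine last among the 10 sequences above are PC-3p-9194_391, PC-3p-90105_39 and PC-5p-20375_178.

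**Figure D3:**
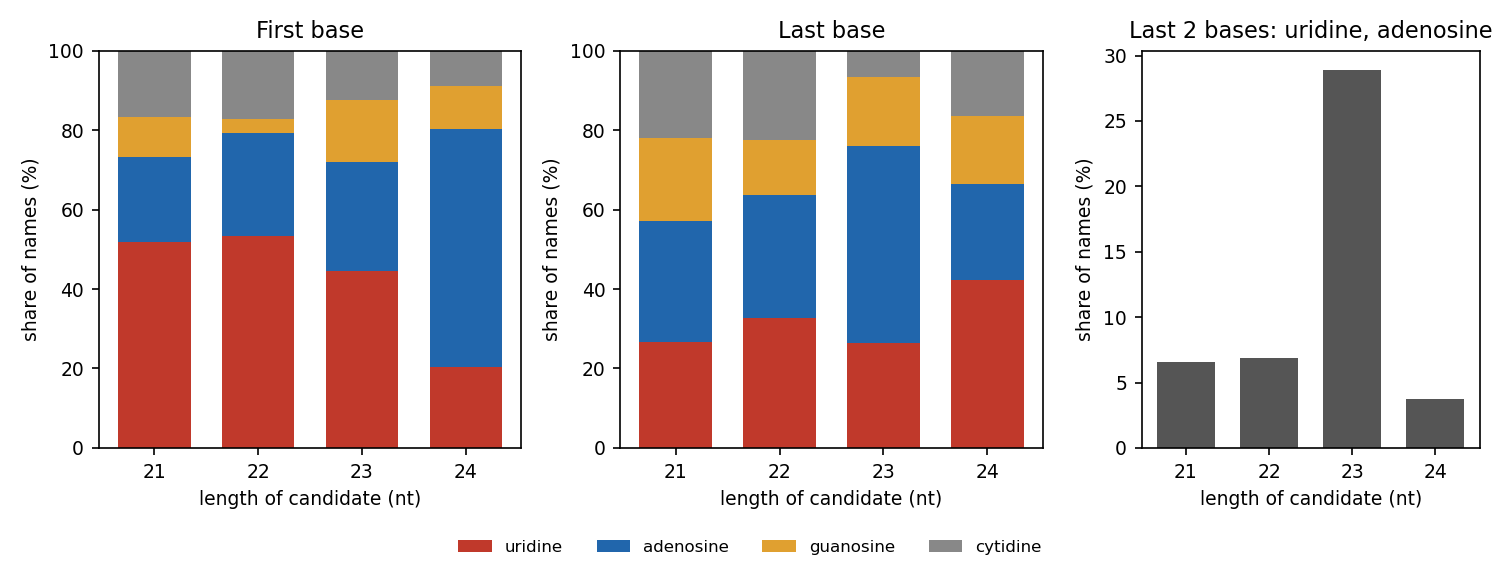
Share of names (vertical, in percent) by first base (left), by last base (middle) and with uridine and adenosine as the last 2 bases (right), for candidates of 21, 22, 23 and 24 nt. Red is uridine, blue adenosine, yellow guanosine and grey cytidine. The red part of the first base is 44.6% at 23 nt and 20.4% at 24 nt, and the right bar is 28.9% at 23 nt and at most 6.90% at the other lengths.

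Most 23 nt candidates came from a single predicted precursor. The 121 names stood on 129 precursors, since 9 names (7.44%) had 2 precursors and 2 was the highest number, with 11.9% of names on 2 precursors at 21 nt and 8.82% at 24 nt. Among the 10 most abundant, PC-3p-90105_39 and PC-3p-45071_80 had 2. The raw reads of the 63 names of the 3′ arm summed to 2318 in fruit at harvest and 2342 in stored fruit, and those of the 58 names of the 5′ arm to 1520 and 1574.

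A partner, meaning a name labelled with the other arm of the same precursor, was listed for 27 of the 129 precursors (20.9%). Of the 121 names 28 (23.1%) had one. The share was 25.3% at 21 nt, 29.0% at 22 nt and 17.5% at 24 nt. The partner was usually a 24 nt candidate, in 23 of the 28 cases (82.1%), with 2 partners of 21 nt, 1 of 22 nt and 1 pair in which both strands had 23 nt. Partners of 24 nt candidates had 24 nt in 82.3% of cases and 23 nt in 9.27%, whereas partners of 21 nt candidates had 21 nt in 48.3% and 24 nt in 25.9%. In the length of the partner the 23 nt candidates were therefore like those of 24 nt. Names of 24 nt made up 70.4% of all new candidates, so that a 24 nt partner is more easily found. Partners were matched by arm label alone, and in 6 of the 27 pairs with a 23 nt strand the 2 strands overlapped on the precursor. Among the 23 partners of 24 nt, PC-3p-121068_29 is the sequence of PC-5p-210704_17 with 1 more base. Of the 23 partners of 24 nt, 16 began with adenosine (69.6%), against 59.9% of all 24 nt candidates, and 4 with uridine. PC-5p-125857_28, which begins with adenosine, is counted more than once among them.

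**Figure D4:**
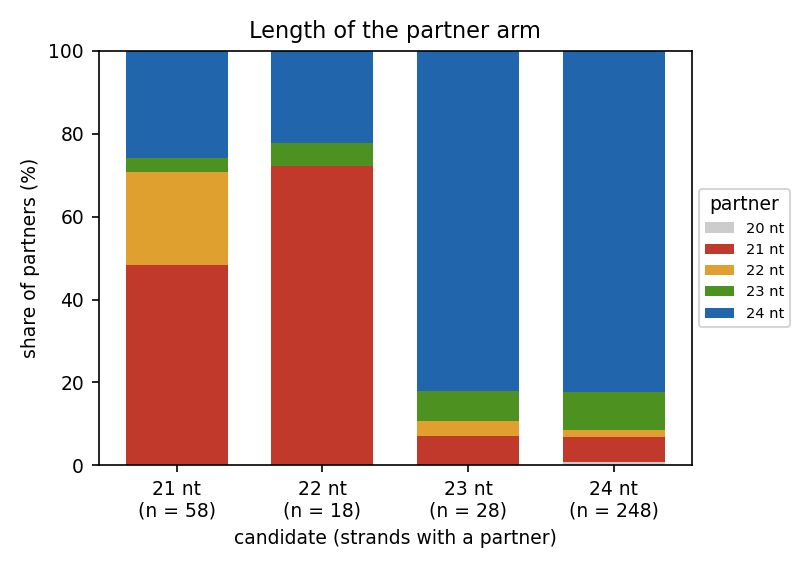
Share of partner strands (vertical, in percent) by their length, for candidates of 21, 22, 23 and 24 nt that have a partner on the same precursor, with the number of such strands below each bar. The blue part, partners of 24 nt, is 82.1% at 23 nt, 82.3% at 24 nt and 25.9% at 21 nt.

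Neither length was the more abundant strand throughout. The 24 nt partner had more raw reads than the 23 nt strand in both libraries in 9 of the 23 pairs and fewer in both in 9. PC-3p-24717_146, with 199 raw reads in each library, faced PC-5p-125857_28 with 39 and 51, and PC-3p-22619_160 on another precursor faced the same partner. PC-5p-69997_51, with 80 and 87 raw reads, had a partner with more reads, PC-3p-40213_89 with 251 and 293. These strands did not face each other, since they overlapped by 12 bases on the precursor. PC-5p-29201_124 had 57 and 90 raw reads and its partner PC-3p-106283_33 had 30 and 31. Both strands moved to the same side of equal values in 7 of the 23 pairs. The 3 pairs with a shorter partner included PC-3p-64488_55, with 57 and 39 raw reads, beside PC-5p-26623_136 of 21 nt with 43 and 33. PC-5p-528949_7, with 9 and 6 raw reads, stood beside PC-3p-103354_34 of 21 nt with 21 and 29. PC-3p-466438_8 had 8 and 13 raw reads beside PC-5p-2222_1443 of 22 nt with 817 and 1111, the widest gap among the 3. In the pair of 2 strands of 23 nt, PC-5p-132712_27 had 15 and 16 raw reads and PC-3p-305941_12 had 9 and 12. These strands too overlapped, by 17 bases of the precursor.

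The hairpin of 1 pair is shown because its arms can be read against each other. It is the precursor of PC-5p-69432_51 (23 nt, 45 and 54 raw reads) and PC-3p-11470_313 (24 nt, 238 and 241), in the region scf0513187:2524618-2524881 on the plus strand of the Fragaria vesca genome 1.0, whose gene annotation at this place was not analysed here. Capitals mark the places of both mature strands in the 151 bases of the precursor.
precursor of PC-5p-69432_51 and PC-3p-11470_313: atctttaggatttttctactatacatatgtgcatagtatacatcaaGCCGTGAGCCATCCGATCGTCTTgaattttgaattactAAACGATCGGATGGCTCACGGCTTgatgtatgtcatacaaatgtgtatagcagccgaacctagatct
In the structure of lowest free energy (-75.4 kcal/mol, RNAfold) 20 base pairs joined the 2 strands. The 3′ end of PC-3p-11470_313 reached 2 bases, and that of PC-5p-69432_51 1 base, past the base that faced the 5′ end of the other strand, which is the overhang meant here whether or not those bases pair with the rest of the hairpin. The sequenced PC-5p-69432_51 differed from the genome by C9T, the genome base first and the base of the mature strand last, counted from 1 at its 5′ end.

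Over all 27 pairs with a 23 nt strand, 12 (44.4%) had at least 14 base pairs between the strands in the predicted fold. In 9 there were none, and the rest had fewer than 14. The 9 included all 6 pairs in which the 2 strands overlapped each other on the precursor. Overhangs of 0 to 4 bases at both ends, near the 2 bases that Dicer leaves, were found in 5 pairs (18.5%), and exactly 2 at both ends in none. Pairs of 2 strands of 24 nt were alike, with 49.0% at 14 base pairs or more and 17.6% with overhangs of 0 to 4. Of the pairs of 21 nt with 21 or 22 nt, 63.0% had at least 14 base pairs and 37.0% overhangs of 0 to 4. The pairs of 21 nt with 24 nt were left out of that class. They fell among 20 other pairs, of which 10% had at least 14 base pairs and none had overhangs of 0 to 4. The 23 nt class took partners of any length, so the classes are not alike. The values therefore do not show which length the 23 nt pairs resemble more.

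A part of the 23 nt candidates was a listed 24 nt candidate less its first or last base. This held for 25 of the 121 names (20.7%), in 32 pairs of a 23 nt and a 24 nt name, a comparison added after the sequences had been seen. The extra base lay at the 5′ end in 13 pairs, where it was adenosine in 9, and at the 3′ end in 19. A step of 1 base between 21 and 22 nt was found for 3 of the 168 names of 21 nt (1.79%). The classes differ in size, with 862 names of 24 nt and 58 of 22 nt, so that a 24 nt match is more easily found. An example with each end is shown, with the extra base of the 24 nt form in capitals.
PC-3p-24717_146, 23 nt: gacgatcggatgactcacggctt
PC-3p-4296_805, 24 nt: Agacgatcggatgactcacggctt
PC-3p-9194_391, 23 nt: taactgagaaaattgacggaata
PC-3p-22179_163, 24 nt: taactgagaaaattgacggaataA

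The longer form usually had more reads. It was above the 23 nt form in both libraries in 22 of the 32 pairs and below it in both in 6, and the median ratio of raw reads, 24 nt over 23 nt, was 1.80 at 0 h and 1.83 at 24 h. PC-3p-4296_805 had 892 and 828 raw reads in the 0 h and the 24 h library, beside 199 and 199 of PC-3p-24717_146. PC-3p-6978_511 had 650 and 651, beside 190 and 176 of PC-3p-23248_155. PC-3p-5498_643 had 508 and 509, beside 97 and 65 of PC-3p-22619_160. In these 3 pairs the extra first base of the 24 nt form was adenosine. PC-3p-22179_163 went the other way with 73 and 64 raw reads, beside 159 and 147 of PC-3p-9194_391. PC-3p-21857_166, with 69 and 80, was contained in 2 longer forms, PC-3p-1251_2450 with 750 and 705 and PC-3p-26946_134 with 86 and 61. In 9 of the 32 pairs the 2 forms carried different arm labels, although they share 23 bases.

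**Figure D5:**
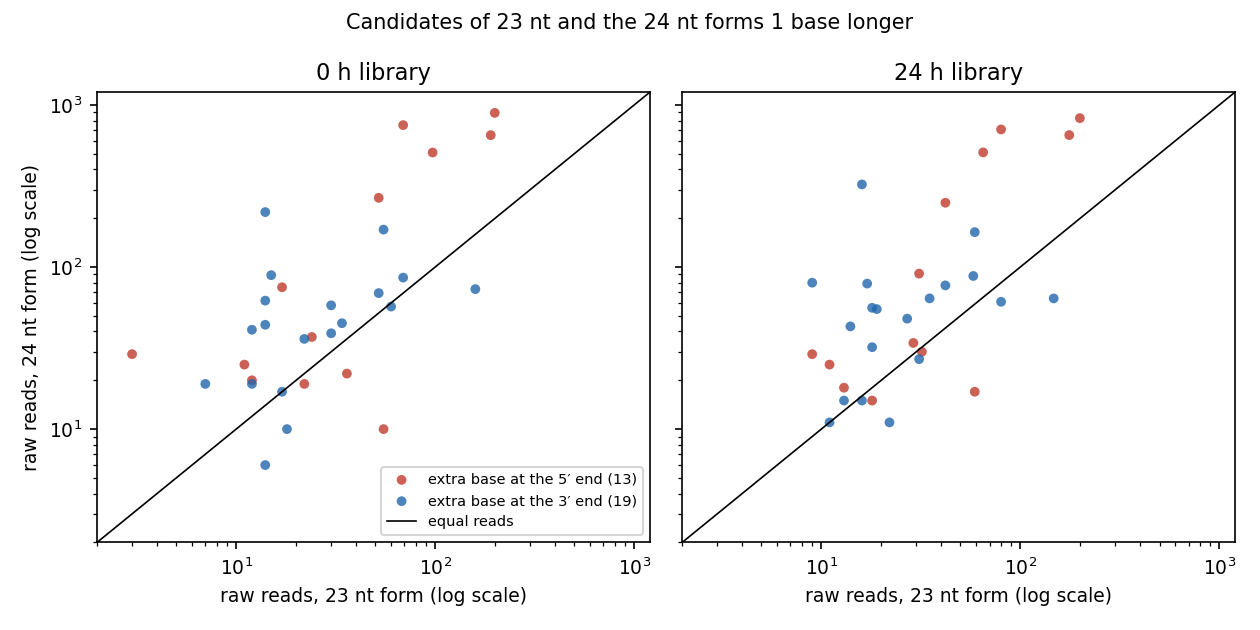
Raw reads of the 23 nt form (horizontal, log scale) and of the 24 nt form that is 1 base longer (vertical, log scale) in the 0 h library (left) and the 24 h library (right), with a point for each of the 32 pairs. Red points have the extra base at the 5′ end (13 pairs), blue points at the 3′ end (19 pairs), and the line marks equal reads. In 22 pairs the point lies above the line in both libraries.

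Many more 23 nt candidates were related to 24 nt candidates in sequence. A run of at least 14 identical bases on the same strand was shared with a 24 nt candidate by 73 of the 121 names (60.3%), with a 21 nt candidate by 18 (14.9%), with a 22 nt candidate by 12 (9.92%) and with another 23 nt candidate by 49 (40.5%). Of the 121 names 51 shared a run with 24 nt candidates but with none of 21 or 22 nt, and 2 the reverse. Among the 24 nt candidates themselves 63.7% shared a run with another 24 nt candidate, and of the 21 nt candidates 23.2% shared one with a 24 nt candidate and 15.5% with another of 21 nt. The unequal size of the classes bears on these shares too.

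Within the 23 nt class the related names formed 18 groups of 2 or more, which held 49 names and 56.0% of the 23 nt reads. By this rule 72 names stood alone. It needs an unbroken run, so that near variants can be kept apart, as PC-5p-210497_17, which differs from PC-5p-455346_8 at 1 base. The group with most reads had 6 names with the run TAACTGAGAAAATTGACGG, with a sum of 561 raw reads in the 0 h library and 513 in the 24 h library (fold 0.842, 0.747 to 0.953). The lines below show it in capitals within the 6 names, to make visible where it lies in each and which bases stand before and after it.
PC-3p-69521_51: aatcTAACTGAGAAAATTGACGG
PC-3p-45022_80: attTAACTGAGAAAATTGACGGa
PC-3p-21857_166: tTAACTGAGAAAATTGACGGaat
PC-3p-9194_391: TAACTGAGAAAATTGACGGaata
PC-3p-25891_140: TAACTGAGAAAATTGACGGaatt
PC-3p-45071_80: TAACTGAGAAAATTGACGGaatc
PC-3p-9194_391, PC-3p-25891_140 and PC-3p-45071_80 have the same first 22 bases and end in adenosine, uridine and cytidine, with 159, 145 and 83 raw reads at 0 h and 147, 110 and 85 at 24 h. PC-3p-69521_51 had 53 and 49 raw reads and PC-3p-45022_80 had 52 and 42. A like split at the last base was found in PC-5p-58424_61 and PC-5p-86142_41, which end in adenosine (78 and 72 raw reads) and guanosine (60 and 58).

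The other groups of at least 3 names with most reads were smaller. The 3 names with the run TCAATAGACTAAGA, which also share the seed CAATAGA, summed to 186 and 207 raw reads (fold 1.02). Here capitals mark the run.
PC-5p-69997_51: TCAATAGACTAAGAaggtggaca
PC-3p-48358_74: TCAATAGACTAAGAgagtggaca
PC-3p-105223_34: TCAATAGACTAAGAgggtggaca
PC-3p-48358_74 had 56 and 73 raw reads and PC-3p-105223_34 had 50 and 47. The 3 names with the run GAGGACTTTCAAATGAACGGTT (PC-5p-58424_61, PC-5p-86142_41 and PC-5p-70666_50, the last with 14 and 18 raw reads) had 152 and 148 in all (fold 0.899). Seeds were shared less widely than these runs, since the 121 names held 101 distinct seeds, and 13 seeds were common to 33 names.

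The group of 6 names that all contain TTTCGTCGG had the highest fold of these 4 groups. Runs of at least 14 bases between single names joined this group. Other 23 nt names with TTTCGTCGG stood outside it, as PC-5p-142175_25 and PC-5p-88451_40. The raw reads of the group summed to 90 and 146, a fold of 1.51 (1.14 to 1.97) with no replicate behind it. Each of the 6 names had more raw reads at 24 h, but they share sequence and are not separate cases. Capitals mark the shared bases.
PC-3p-98812_36: tattttataTTTCGTCGGctatc
PC-3p-71839_49: aaatattttataTTTCGTCGGca
PC-3p-106748_33: cgaaatattttataTTTCGTCGG
PC-3p-113344_31: tatggcatgTTTCGTCGGctatt
PC-5p-100593_35: tatggcatgTTTCGTCGGctatc
PC-3p-233903_15: aattatagtataTTTCGTCGGca
PC-3p-98812_36 had 26 and 55 raw reads, PC-3p-71839_49 had 26 and 29, and PC-3p-106748_33 had 14 and 22. PC-3p-233903_15 had 5 and 14, PC-5p-100593_35 had 10 and 12, and PC-3p-113344_31 had 9 and 14. Its core, the 8 bases TTCGTCGG, was then searched on both strands of all candidates, a search chosen after the sequences had been seen, and no other motif was searched. It occurred in 20 of the 121 names of 23 nt (16.5%), in 10 of 58 at 22 nt (17.2%), in 70 of 862 at 24 nt (8.12%) and in 2 of 168 at 21 nt (1.19%). In the 23 nt class all 20 carried it on the same strand, 10 of them as their last 8 bases from base 16 on. The raw reads of the 20, which include the 6 names of the group, summed to 440 at 0 h and 587 at 24 h. Carriers at 24 nt summed to 2305 and 3014, at 22 nt to 535 and 717, and at 21 nt to 14 and 43. More raw reads at 24 h were thus not particular to the 23 nt carriers. The match is a run of letters and names no site or factor.

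Some 23 nt candidates were the complement of other candidates. A complementary run of at least 14 bases joined 31 of the 121 names (25.6%) to another candidate, in 106 pairs with 24 nt candidates, 16 with 23 nt, 8 with 22 nt and 5 with 21 nt. Among the 106 pairs with 24 nt the most frequent arrangement, with 14 pairs, left an overhang of 1 base at the 3′ end of the 23 nt strand and of 2 at that of the 24 nt strand. It joined 7 names of 23 nt to 12 of 24 nt, of which 10 began with adenosine. Apart from the pairs of PC-3p-285951_13 and PC-3p-98812_36, these were close variants of 1 sequence and its complement. All 10 names with a first adenosine belonged to these variants, so that the pairs are not separate cases. The longest run was 22 bases, in 6 pairs, and 5 of these had this arrangement. A pair of them is shown, with the paired bases in capitals.
PC-5p-69432_51, 23 nt: GCCGTGAGTCATCCGATCGTCTt
PC-3p-4296_805, 24 nt: AGACGATCGGATGACTCACGGCtt
PC-5p-69432_51 had 45 and 54 raw reads, against 892 and 828 of PC-3p-4296_805. PC-3p-4296_805 is also the 24 nt form of PC-3p-24717_146 shown above, so that the most abundant 23 nt candidate, its longer form and a strand opposite both were all listed. Whether such strands came from 1 duplex was not tested.

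In the match to the genome, the 23 nt candidates with a precursor sequence at hand stood beside those of 24 nt. Such a sequence was at hand for 66 of the 121 names. Most of the 66 came from the 5′ arm, so that the values below say little on the 3′ arm. Of the 66 names 29 (43.9%) matched the precursor exactly while 37 (56.1%) differed at 1 base. Exact matches were 67.3% at 21 nt, 67.6% at 22 nt and 45.2% at 24 nt. The genome is that of the woodland strawberry Fragaria vesca and the fruit that of Fragaria x ananassa, so that a difference between the species and a changed base of the RNA cannot be told apart here. The difference lay at the last base in 6 of the 37 names, and in 4 of these the mature strand had adenosine, as T23A in PC-5p-29201_124 and G23A in PC-5p-85833_41, PC-3p-91575_39 and PC-5p-441518_9. The other 31 differences lay inside the sequence, as G13A in PC-3p-24717_146. The ending in uridine and adenosine was also present in 7 of the 29 exact matches (24.1%). Its share of the exact matches was 4.76% at 24 nt, 12% at 22 nt and 7.35% at 21 nt.

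The degradome listed a target for 1 of the 121 names (0.826%). PC-3p-24717_146 was paired with gene11901-v1.0-hybrid, a gene without annotation in the authors' table, at transcript bases 451 to 472 with the cut at base 463. The site held 1 degradome read, an alignment score of 4, category 4 and an authors' p-value of 0.18, so that it rested on a single read. A target was listed for 26 of the 168 candidates of 21 nt (15.5%), for 2 of the 58 of 22 nt (3.45%) and for 5 of the 862 of 24 nt (0.580%). None of the 24 nt forms that are 1 base longer than a 23 nt candidate had a target. In this count too the 23 nt candidates stood beside those of 24 nt.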

How the data were processed

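Small RNA libraries of fruit stored for 0 h and 24 h (1 each) and a degradome library of their mixture (1) were used. Raw counts of reads per mature miRNA were deposited by the authors, who filtered reads with ACGT101-miR 4.2, kept 15 to 32 nt and mapped them to miRBase 19 and the Fragaria vesca genome 1.0. The normalized reads are deposited scores in whole numbers, close to the raw reads multiplied by 0.917 (0 h) and 0.846 (24 h), with a formula not given in the sources used here. For the degradome the authors used CleaveLand 3.0 and ACGT301-DGE 1.0, and deposited an alignment score, a category, a p-value and the signal (degradome reads at the cut).

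A name listed with several precursors was counted once. Folds are 24 h over 0 h on the normalized reads, for names that reached 10 raw reads in either library, called past a log2 fold of 1 or -1. A total of 3 raw reads stood as the floor of a 0, which no 23 nt name needed. Precision follows the raw reads of a name, and intervals are conditional binomial for folds and Clopper-Pearson for shares. Related names share at least 14 bases. Precursor sequences and positions came from the study's table of candidates, of which 715 entries were at hand for 1334, and were folded with RNAfold (ViennaRNA 2.7.2). The procedure was tested on simulated data. The named miRNAs are the 10 most abundant of 23 nt, those past 2-fold, those with a partner under 24 nt and the most abundant pairs with a 24 nt partner, the members of the 4 groups of at least 3 names with most reads, and those with a target. Names just inside the threshold, longer 24 nt forms, end bases and the motif were singled out after values or sequences were seen. The members, lists and tests were chosen with earlier results of these data known.

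Alternatives were other scalings (none, mappable reads, listed total, TMM of edgeR 4.0.16, size factors of DESeq2 1.42.0, raw reads times the library factor), other filters, a pseudocount, other shared runs and other units of counting. Python 3.11.15, numpy 2.4.6, pandas 2.3.3, scipy 1.17.1, matplotlib 3.10.9 and R 4.3.3 were used. Gene annotation of the cultivated strawberry was left out because its identifiers differ from those in the files.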

Additional observations from a re-analysis of the deposited data

How the results depend on the processing

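No paired analysis was possible because each storage time has 1 library. Of 53 alternative values, 35 were classed as the same as the reported one. Among these was the median log2 fold without a filter on low counts, which was 0 in place of -0.047. Without scaling, and with scaling by the total of listed miRNAs, the median log2 fold of the 23 nt names turned from -0.047 to 0.057 and 0.060, their summed fold turned from 0.945 to 1.02 in both, and the lower names went from 5 to 3 in both. The lower names were 6 with TMM factors and 7 with mappable reads, DESeq2 size factors or raw reads times the library factor. Of these settings, no scaling and scaling by the total of listed miRNAs leave out the stronger downward scaling of the 24 h library. Among the 27 names that reached 50 raw reads in either library, 0 names were higher and 0 lower, and the same counts of 0 and 0 came from a 95% interval wholly beyond 2-fold. A pseudocount of 1 left 3 higher and 3 lower. Without the 10 most abundant names the share of candidate reads was 0.595% at 0 h and 0.482% at 24 h, by construction. Among these 27 names the share beginning with adenosine was 14.8% in place of 27.3%, and the share that is a 24 nt candidate less 1 end base was 29.6% in place of 20.7%, and the cause was not tested. The share related to a 24 nt candidate was 76.0% with a run of 12 bases and 47.1% with 18. The alternatives for the last 2 bases and for the 24 nt forms were chosen after seeing the data. Low reads limit all single names.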
